A study of Mus musculus with 18 samples.

Results

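The 10 genes described here, B2m, H2-K1, H2-D1, H2-Q5, H2-T23, Tap1, Tap2, Tapbp, Psmb8 and Psmb9, belong to the MHC class I presentation pathway. They were chosen by gene name, each stood on a single gene ID in both deposited tables, and they are 10 of 55487 genes listed there. All 10 also passed the filter on low counts that left 15996 genes for testing. RNA-seq had been done on BV2 cells, an immortalised mouse microglial line, to ask how the response to oxyhemoglobin, the blood pigment released by a hemorrhage, depends on the pore-forming death protein Bak1. Libraries labelled BAK1-KD (KD below) were 3 controls without oxyhemoglobin, 3 from cells given it for 12 h and 3 from cells given it for 24 h. Libraries labelled NC followed the same scheme, which gave 6 groups of 3 and 18 libraries in all. The dose on the labels was 10 mM for each treated group. All cells had been plated 12 h before treatment began. How the knockdown was made, what NC stands for and whether either line is a single clone are not given in the sources used here. No untreated culture kept for 12 h or 24 h was among the samples, so oxyhemoglobin and time in culture cannot be told apart in any comparison with control. Separate cultures are stated for no group, and each p-value therefore rests on the spread among libraries, which may be technical.

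MHC class I molecules show the cell's own peptides to cytotoxic T cells. Each complex is a heavy chain held together with beta-2 microglobulin, the product of B2m. Peptides are cut in the cytosol by the proteasome, pumped into the endoplasmic reticulum by the TAP transporter and loaded on the heavy chain with the help of tapasin. Interferon raises many of these genes together and swaps catalytic subunits of the proteasome for the inducible ones made from Psmb8 and Psmb9. Microglia are the resident macrophages of the brain, where class I genes are low at rest and rise in inflammation.

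Library totals ran from 4361313 to 6008810 counts, of which 12.9% to 25.3% fell on CT010467.2 alone. Bak1 did not bear out the line labels: its counts summed to 39 over 9 libraries labelled KD (1 to 12 a library) and to 25 over 9 libraries labelled NC (0 to 7 a library). The lines are therefore called by their labels throughout. None of 10 microglia and macrophage markers was at 0 in every library, though Aif1, named after its values were seen, was at 0 in some libraries at 24 h in each line and reached 1.67 CPM at most. Their summed level ran from 614 to 932 CPM in libraries labelled KD and from 533 to 710 CPM in libraries labelled NC. CPM here means counts scaled to 1000000 per library, with the library size corrected by TMM factors. Dendritic cells also present antigen, and their 4 markers summed to 89.3 to 179 CPM over the 18 libraries. All 4 T and NK cell markers and all 4 globin genes were at 0 in every library. Libraries numbered 2 in the titles stood apart in all 6 groups. Genes other than CT010467.2 that are not annotated as protein-coding took 9.75% to 10.9% of their counts, against 7.89% to 9.26% in libraries numbered 1 and 3. These genes include pseudogenes and noncoding mitochondrial genes. Malat1, also among them, took 1.43% to 2.01% in libraries numbered 2, against 0.847% to 1.32%.

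The genes lie at 2 places in the GRCm38 genome. Positions are from GENCODE M21, since the sources used here name no annotation release. B2m is at chr2:122147686-122153083 on the plus strand. The other 9 lie in the MHC on chromosome 17. From the proximal end these are Tapbp at chr17:33915899-33929292 (plus), H2-K1 at chr17:33996017-34000347 (minus), Psmb9 at chr17:34181987-34187764 (minus), Tap1 at chr17:34187553-34197225 (plus), Psmb8 at chr17:34197721-34201454 (plus) and Tap2 at chr17:34203527-34216321 (plus). H2-D1 at chr17:35262730-35267499 (plus), H2-Q5 at chr17:35394126-35397800 (plus) and H2-T23 at chr17:36029773-36032855 (minus) follow. The annotation calls H2-Q5 a polymorphic pseudogene and the other 9 protein-coding.

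Promoter windows are shown for B2m, the classical heavy chains, Tap1 and Psmb8, since they hold the motifs and the shared upstream sequence compared below. They are RefSeq windows on GRCm38.p6 that run from 250 bases before to 50 bases after a start site, and 8 of the 10 members had such a window. H2-Q5 and Tap2 had none. Capitals mark matches, on either strand, to 4 short motifs: GAAANNGAA of interferon-stimulated elements, TTCNNNGAA of gamma-activated sites, GGGATTCCC of the kappa-B site in class I enhancer A, and CCAAT. TTCNNNGAA is its own reverse complement, and no match overlapped another motif in these windows. The windows are chr2:122147437-122147736 (plus) for B2m, chr17:34000298-34000597 (minus) for H2-K1, chr17:35262844-35263143 (plus) for H2-D1, chr17:34187306-34187605 (plus) for Tap1 and chr17:34197945-34198244 (plus) for Psmb8.
B2m: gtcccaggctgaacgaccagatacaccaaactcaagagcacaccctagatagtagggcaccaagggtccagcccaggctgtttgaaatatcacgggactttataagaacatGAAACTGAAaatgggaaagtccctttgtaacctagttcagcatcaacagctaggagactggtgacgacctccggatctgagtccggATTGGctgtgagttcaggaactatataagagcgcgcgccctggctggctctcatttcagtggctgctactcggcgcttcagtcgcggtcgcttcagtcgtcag
H2-K1: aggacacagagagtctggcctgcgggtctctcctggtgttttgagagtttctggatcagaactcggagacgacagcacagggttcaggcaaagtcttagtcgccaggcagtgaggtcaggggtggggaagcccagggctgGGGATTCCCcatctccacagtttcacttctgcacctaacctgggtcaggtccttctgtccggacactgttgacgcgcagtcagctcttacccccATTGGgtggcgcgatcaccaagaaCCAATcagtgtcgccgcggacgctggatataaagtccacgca
H2-D1: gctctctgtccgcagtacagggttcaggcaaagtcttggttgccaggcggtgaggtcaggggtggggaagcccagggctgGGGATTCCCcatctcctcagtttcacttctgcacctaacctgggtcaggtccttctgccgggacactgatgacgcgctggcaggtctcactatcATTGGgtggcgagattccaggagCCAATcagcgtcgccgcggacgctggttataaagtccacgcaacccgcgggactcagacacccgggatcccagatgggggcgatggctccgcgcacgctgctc
Tap1: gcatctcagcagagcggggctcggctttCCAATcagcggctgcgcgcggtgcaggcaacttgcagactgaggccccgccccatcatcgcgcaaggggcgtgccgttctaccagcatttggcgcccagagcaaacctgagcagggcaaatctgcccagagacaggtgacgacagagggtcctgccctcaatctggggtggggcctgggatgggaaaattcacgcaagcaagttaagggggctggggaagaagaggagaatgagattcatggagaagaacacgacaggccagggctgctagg
Psmb8: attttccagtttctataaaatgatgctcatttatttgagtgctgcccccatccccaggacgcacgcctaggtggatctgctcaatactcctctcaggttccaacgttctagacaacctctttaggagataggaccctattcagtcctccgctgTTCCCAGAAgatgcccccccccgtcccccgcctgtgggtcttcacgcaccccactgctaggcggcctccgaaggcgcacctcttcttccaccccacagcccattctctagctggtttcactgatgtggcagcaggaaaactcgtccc

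GGGATTCCC occurred in the H2-K1 and H2-D1 windows and in 0.353% of all 32817 RefSeq windows of that length. Without gaps, the H2-K1 and H2-D1 windows were identical at 176 of 240 aligned bases (73.3%). GAAANNGAA occurred in the B2m window, 139 bases before the start site, and in that of H2-T23, and in 8.55% of all windows. TTCNNNGAA occurred in the Psmb8 window and in 8.29% of all windows. CCAAT occurred in every member's window except that of Psmb8, and in 37.4% of all windows. The Tap1 and Psmb9 genes point away from each other with start sites 226 bases apart. Their windows share 275 bases, so the Tap1 letters above, read on the other strand, also hold most of the Psmb9 window, and the CCAAT match is the same bases in both. A match is a string of letters and does not show a bound factor. The strings are fixed, so an element spelled otherwise goes unmarked, and a window without a match is not shown to lack one.

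Class I heavy chain genes resemble each other closely, which limits what a read can be assigned to. The longest identical stretch between the longest annotated transcripts of any 2 of the 4 heavy chains, coding ones where the gene is protein-coding, was 145 bases, shared by H2-D1 (transcript positions 1047 to 1191) and H2-T23 (837 to 981). It lies in the exon that codes for the alpha 3 domain, the part of the heavy chain that meets CD8 and beta-2 microglobulin, and it is printed in lower case with no letters marked.
H2-D1 and H2-T23: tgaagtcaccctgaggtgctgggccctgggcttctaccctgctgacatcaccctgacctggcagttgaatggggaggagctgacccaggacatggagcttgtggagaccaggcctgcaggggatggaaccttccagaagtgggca
H2-K1 and H2-D1 shared an overlapping stretch of 91 bases in the same exon. Of all distinct 50-base stretches in its annotated transcripts, H2-Q5 shared 36.4% with other genes, above all H2-Q7 (25.5%). The share was 23.2% for Tapbp, mostly with Gm19412, 14.5% for H2-T23, 12.8% for H2-D1, 11.9% for Psmb8, 11.6% for Tap2, 9.63% for H2-K1, 4.19% for Psmb9, 3.33% for Tap1 and 0 for B2m. The sources used here do not say whether the authors' counting used strand or how it treated reads that fit several genes. Counts of the heavy chains, Tapbp, Psmb8 and Tap2 are therefore uncertain to that extent. Reads over the overlapping ends of Tap1 and Psmb9 cannot be told apart.

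The light chain was by far the most abundant of the 10. Per kilobase of merged exons, B2m had a median of 1497 CPM over 18 libraries (823 to 2440). H2-D1 followed with 45.6 (28.4 to 91.8), then H2-K1 with 21 (11.6 to 92.3), H2-T23 with 15.4 (6.95 to 35.0), Tapbp with 11.7 (5.24 to 45.7), H2-Q5 with 6.77 (2.83 to 16.2) and Psmb8 with 6.76 (3.66 to 20.4). Psmb9 (4.33, from 1.89 to 9.61), Tap1 (4.02, from 2.17 to 8.21) and Tap2 (0.561, from 0.221 to 0.903) closed the order. Neighbours in it were not all distinct: H2-Q5 exceeded Psmb8 in 9 of 18 libraries, Psmb9 exceeded Tap1 in 10, H2-T23 exceeded Tapbp in 13, Psmb8 exceeded Psmb9 in 14 and Tapbp exceeded H2-Q5 in 15. H2-D1 exceeded H2-K1 in 17 of 18, and each other gene exceeded the next in all 18. Tap2, the second half-transporter gene of the TAP pair, had only 4 to 19 counts a library, so only large changes could be seen in it.

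Deposited TPM gave another order for H2-K1. For 54460 of 55487 genes the length behind the deposited TPM equalled the exon lengths summed over all annotated transcripts, counting shared exons again each time. For H2-K1 that length was 16135 bases, against 2938 bases of merged exons, a ratio of 5.49. The ratio was 3.02 for Tap1, 2.72 for Tapbp, 2.49 for Psmb8, 2.37 for H2-T23, 2.10 for Psmb9, 1.88 for Tap2, 1.77 for H2-D1, 1.46 for H2-Q5 and 1 for B2m. By deposited TPM the median of B2m was 322 times that of H2-K1, and per merged kilobase 71.3 times. H2-K1 thus ranked 6 of 10 by deposited TPM and 3 of 10 per merged kilobase. Fold changes of a gene between libraries do not depend on its length.

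**Figure D1:**
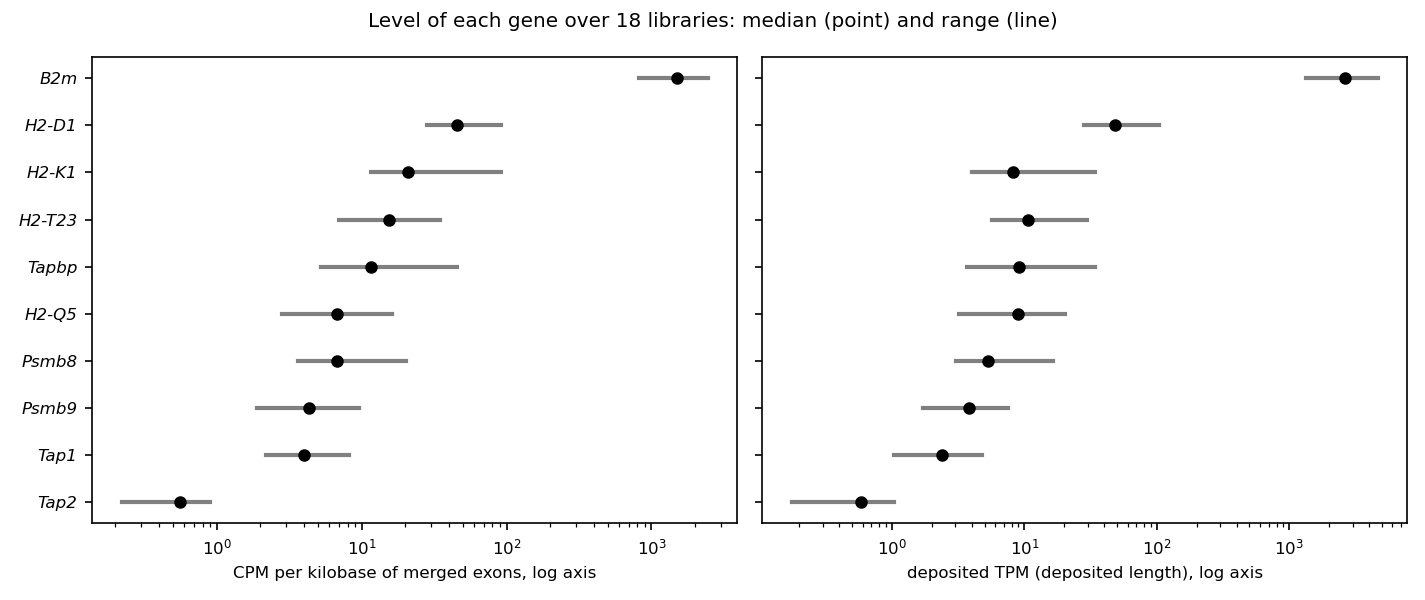
Level of each gene over 18 libraries, on log axes. The left panel gives CPM per kilobase of merged exons and the right panel deposited TPM; points are medians and lines run from the lowest to the highest library. B2m stands far above the rest in both, and H2-K1 follows H2-D1 by merged exons but lies below H2-T23, Tapbp and H2-Q5 by deposited TPM.

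The first comparison asked what oxyhemoglobin did to the light chain. B2m was higher at 12 h in both lines. In libraries labelled KD it stood at 1228, 1403 and 1038 CPM in controls, at 2098, 1749 and 1516 CPM after 12 h, and at 1571, 1347 and 1194 CPM after 24 h. In libraries labelled NC it stood at 772, 854 and 708 CPM in controls, at 1453, 1309 and 1332 CPM after 12 h, and at 797, 1106 and 1266 CPM after 24 h. In each line the 3 libraries at 12 h were above the 3 controls, and at 24 h the libraries overlapped the controls. At 12 h libraries did not overlap their controls for 30.8% of all tested genes in KD and 26.5% in NC. Against control, the log2 fold change at 12 h was 0.55 ± 0.18 in libraries labelled KD (SE; 1.46-fold; edgeR's quasi-likelihood test, adjusted p = 0.0401) and 0.81 ± 0.18 in libraries labelled NC (1.75-fold; adjusted p = 0.00356). At 24 h it was 0.16 ± 0.18 in KD (adjusted p = 0.676) and 0.44 ± 0.18 in NC (adjusted p = 0.161). In RNA from whole cultures, fewer expressing cells and less RNA per cell cannot be told apart.

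B2m was the only member of 10 called in either 12 h comparison by this edgeR fit of all 18 libraries with TMM factors. It called 16.0% of all tested genes for KD and 12.2% for NC. Psmb9 was called at 12 h in KD in other settings, as given below. The calls count genes with a Benjamini-Hochberg adjusted p under 0.05 over all 15996 genes. The B2m call at 12 h in KD was lost without KD control library 1 or 3, KD 12 h library 1 or 2, or NC 12 h library 3, with adjusted p from 0.0240 to 0.193 when 1 library was left out. Fitting just the KD control and KD 12 h libraries also lost it, and adjusted p ran from 0.0161 to 0.195 over the 12 other settings. The call in NC held without any single library. On deposited TPM, limma called no member at 12 h in either line.

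With library number as a replicate block, which the data allowed for the time comparisons, 6 members were called at 12 h in KD, where 28.8% of all genes were called. These were B2m (0.55 ± 0.17), H2-D1 (0.58 ± 0.11), Tapbp (0.60 ± 0.16) and Psmb8 (0.54 ± 0.17), all higher, and Tap1 (-0.56 ± 0.17) and Psmb9 (-0.88 ± 0.18), both lower, with adjusted p of 0.0298, 4.03e-05, 0.00483, 0.0152, 0.00886 and 0.000197 in that order. At 12 h in NC the blocked fit called 4 members, against 24.7% of all genes. B2m (0.81 ± 0.17, adjusted p = 0.00356) and Tapbp (0.54 ± 0.17, adjusted p = 0.0154) were higher, and Tap1 (-0.53 ± 0.17, adjusted p = 0.0214) and Psmb9 (-0.72 ± 0.20, adjusted p = 0.00461) were lower. Apart from B2m, the fit of all 18 libraries with TMM factors, the filter on low counts and no block made none of these calls.

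The transporter subunit gene Tap1 and the inducible proteasome subunit gene Psmb9, which replaces Psmb6 in the immunoproteasome, were lower after 24 h. Tap1 stood at 43.5, 24.1 and 44.9 CPM in KD controls, 22.5, 17.6 and 36.4 CPM at 12 h, and 23.3, 11.9 and 20.2 CPM at 24 h. In NC it stood at 25.7, 20.8 and 39.0 CPM in controls, 21.6, 14.5 and 22.6 CPM at 12 h, and 11.9, 12.8 and 16 CPM at 24 h. All 3 libraries at 24 h were below all 3 controls in each line, where 27.4% of all genes in KD and 21.4% in NC did not overlap, while at 12 h they overlapped. The log2 fold change at 24 h was -1.01 ± 0.31 in KD (0.496-fold; edgeR adjusted p = 0.0386) and -1.06 ± 0.31 in NC (0.480-fold; adjusted p = 0.0407).

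Psmb9 stood at 28.2, 22.4 and 35.2 CPM in KD controls, 16, 10.9 and 20.2 CPM at 12 h, and 16.1, 6.90 and 18.8 CPM at 24 h. In NC it stood at 23, 14.5 and 21 CPM in controls, 13.3, 8.80 and 13.5 CPM at 12 h, and 15.7, 9.04 and 11.2 CPM at 24 h. Both treated KD groups lay wholly below their controls, as for 30.8% of all genes without overlap at 12 h and 27.4% at 24 h. NC at 12 h also lay below its controls, where 26.5% of all genes did not overlap, and NC at 24 h overlapped its controls. At 24 h the log2 fold change was -1.03 ± 0.31 in KD (0.489-fold; edgeR adjusted p = 0.0365) and -0.71 ± 0.32 in NC (adjusted p = 0.216). At 12 h it was -0.86 ± 0.31 in KD (adjusted p = 0.0600) and -0.72 ± 0.32 in NC (adjusted p = 0.164). The 12 h difference in KD was called lower in 6 of 12 other settings. Among these were upper-quartile factors, the compared groups fitted alone and the fit without libraries numbered 2. Leaving out 1 library gave edgeR adjusted p from 0.0252 to 0.218, and the call was made in 5 of 18 cases.

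At 24 h, then, 2 of 10 members were called in KD, against 9.59% of all genes, and 1 of 10 in NC, against 7.57%. On deposited TPM, limma called only Psmb9 in KD and none in NC. In KD, both calls were lost without control library 1 or 3 or 24 h library 2; Tap1 was also lost without 24 h library 3, and Psmb9 without 24 h library 1, with adjusted p up to 0.159 and 0.161. In NC, the Tap1 call was lost without control library 1 or 3 or any library at 24 h (adjusted p from 0.0213 to 0.210). With the replicate block the same 2 members were called in KD at 24 h (21.5% of all genes), and Tap1 (-1.03 ± 0.18, adjusted p = 3.82e-05), Psmb9 (-0.71 ± 0.20, adjusted p = 0.00720) and Tapbp (-0.55 ± 0.18, adjusted p = 0.0284) were called lower in NC (18.9% of all genes).

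**Figure D2:**
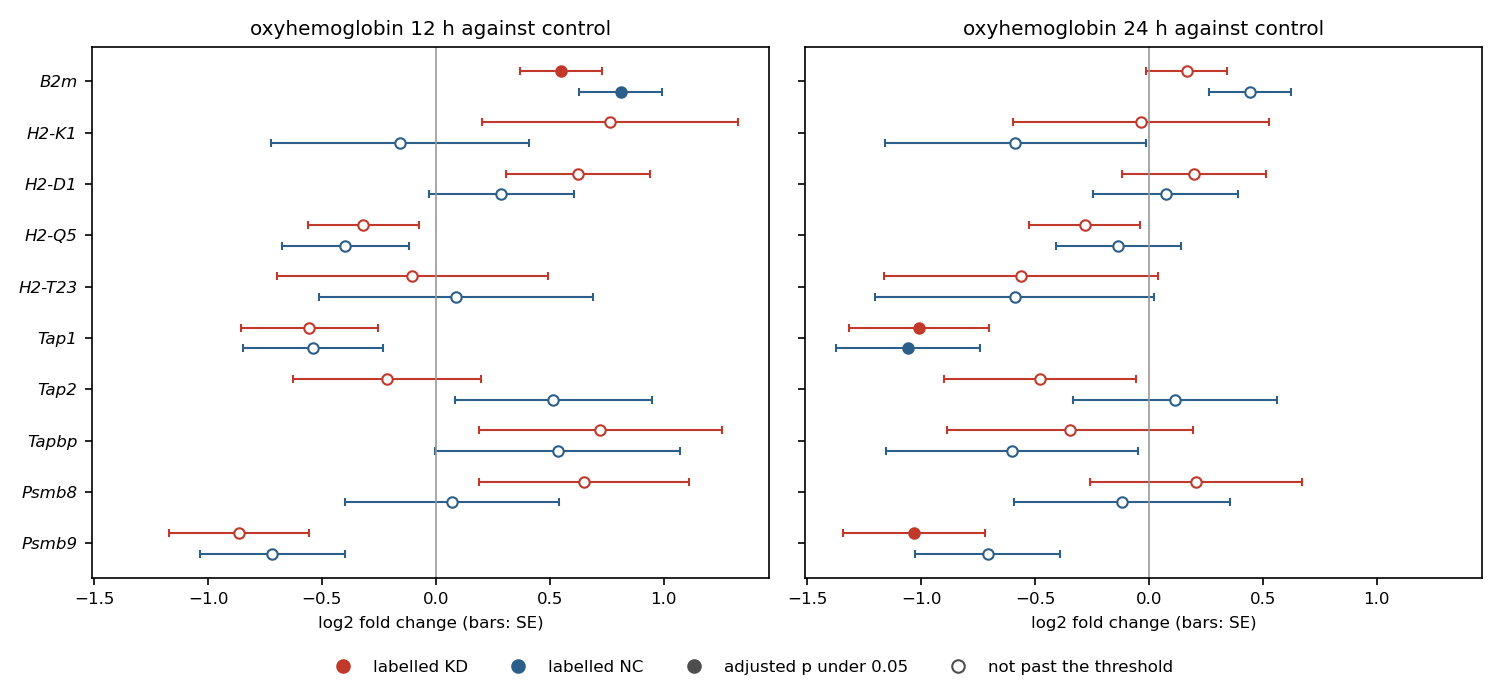
Log2 fold change of each gene at 12 h (left) and 24 h (right) of oxyhemoglobin against the control of the same line, with libraries labelled KD above NC for each gene; bars are SE and filled points have adjusted p under 0.05. B2m is filled at 12 h in both lines, Tap1 at 24 h in both lines and Psmb9 at 24 h in KD.

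The classical heavy chains H2-K1 and H2-D1, which present peptides to CD8 T cells, were not called at any time with the filter on low counts and without the block. Without the filter both were called higher at 12 h in KD (H2-K1 adjusted p = 0.00232), and H2-K1 was called lower at 24 h than at 12 h in KD (adjusted p = 0.00336). H2-K1 stood at 89.2, 59.3 and 98.2 CPM in KD controls, 86.4, 61.6 and 271 CPM at 12 h, and 55.0, 40.6 and 146 CPM at 24 h. In NC it stood at 61.1, 45.8 and 116 CPM in controls, 80.1, 43.1 and 76.5 CPM at 12 h, and 61.8, 34.1 and 52.7 CPM at 24 h. A single library, number 3, set the high KD values after treatment, and its groups overlapped the controls. The 12 h log2 fold change was 0.77 ± 0.56 in KD (edgeR adjusted p = 0.435) and -0.16 ± 0.57 in NC (adjusted p = 0.912). H2-D1 ran from 113 to 237 CPM at 12 h in KD, against 90.3 to 133 CPM in KD controls, and from 86.6 to 153 CPM at 12 h in NC, against 78.2 to 128 CPM in NC controls. Its log2 fold change was 0.62 ± 0.32 in KD (adjusted p = 0.215) and 0.29 ± 0.32 in NC (adjusted p = 0.659).

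The nonclassical heavy chain H2-T23 encodes Qa-1, a ligand of inhibitory receptors on NK cells, and H2-Q5 is a gene of the Qa region. H2-T23 had log2 fold changes from -0.59 to 0.09 in the 4 comparisons with control, each within its SE of 0.59 to 0.61. H2-Q5 had log2 fold changes from -0.40 to -0.13, with adjusted p from 0.426 to 0.858. The 4 heavy chains together summed to 278 ± 71.5 CPM in KD controls, 387 ± 213 CPM at 12 h and 268 ± 126 CPM at 24 h (SD, n = 3 each). In NC they summed to 233 ± 84.6, 249 ± 81.5 and 196 ± 59.2 CPM. This sum does not depend on how reads were split among these 4 genes.

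Tapbp encodes tapasin, which bridges TAP and the empty heavy chain. It stood at 57.8, 35.8 and 75.9 CPM in KD controls, 70.4, 43.1 and 166 CPM at 12 h, and 41.7, 23.2 and 68.4 CPM at 24 h. In NC it stood at 32.3, 27.5 and 72.3 CPM in controls, 66.0, 34.5 and 90.8 CPM at 12 h, and 33.4, 19.0 and 34.6 CPM at 24 h. In each line every library number was highest at 12 h, while the groups overlapped. Between 24 h and 12 h, Tapbp had a log2 fold change of -1.07 ± 0.54 in KD (edgeR adjusted p = 0.401) and -1.14 ± 0.55 in NC (adjusted p = 0.388). With the replicate block it was -1.0 ± 0.16 in KD (adjusted p = 5.56e-05) and -1.09 ± 0.17 in NC (adjusted p = 5.09e-05), and it was also called in each line without a filter.

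Psmb8, the inducible counterpart of Psmb5, and Tap2 were not called against control in either line without the block. Psmb8 ran from 23.5 to 68.9 CPM at 12 h in KD, against 20.4 to 31.6 CPM in KD controls (0.65 ± 0.46, adjusted p = 0.411), and from 18.9 to 32.1 CPM at 12 h in NC, against 12.4 to 37.8 CPM in NC controls (0.07 ± 0.47, adjusted p = 0.955). Tap2 ran from 0.835 to 3.41 CPM over all libraries; at 24 h in KD its 3 libraries, at 2.45, 2.09 and 1.43 CPM, were below the KD controls, at 2.77, 2.59 and 3.12 CPM (-0.48 ± 0.42, adjusted p = 0.579), and 27.4% of all genes did not overlap there.

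Between 24 h and 12 h edgeR called none of the 10 members in KD, where 4.28% of all genes were called, and none in NC, where 2.76% were called. At an unadjusted p under 0.05 the counts were 1 in KD and 0 in NC. DESeq2 and limma also called none. Libraries at 24 h and 12 h overlapped for all 10 members in KD (19.8% of all genes did not overlap), and in NC for all but B2m, which was lower at 24 h without overlap (17.0% of all genes; -0.37 ± 0.18, adjusted p = 0.370). The replicate block gave 2 lower members in KD, Tapbp and H2-D1 (-0.41 ± 0.11, adjusted p = 0.00605), against 12.3% of all genes, and Tapbp alone in NC, against 11.5%.

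**Figure D3:**
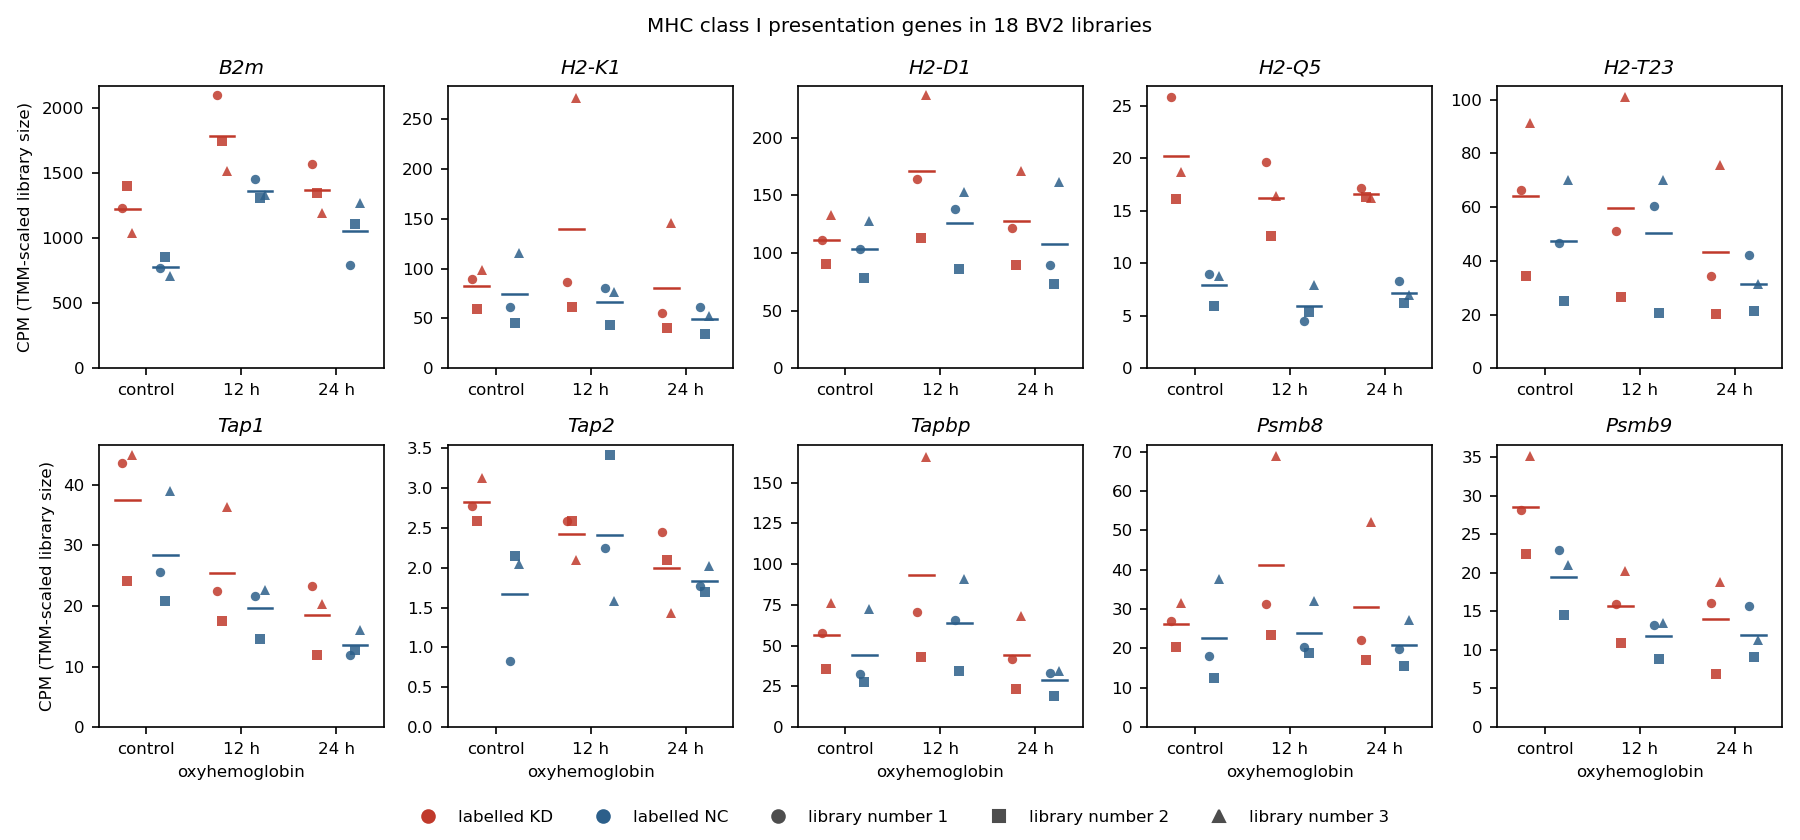
CPM of each gene in all 18 libraries at control, 12 h and 24 h of oxyhemoglobin, with libraries labelled KD left of NC at each time. Marker shape gives the library number, horizontal lines are group means, and each panel has its own axis from 0. H2-Q5 separates the lines at each time, B2m is highest at 12 h, and squares (library number 2) lie lowest in most panels.

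The second comparison set the lines side by side. H2-Q5 was higher in libraries labelled KD at each time. In controls it stood at 25.8, 16.2 and 18.7 CPM in KD and at 8.97, 5.94 and 8.78 CPM in NC. At 12 h it stood at 19.7, 12.6 and 16.4 CPM in KD and at 4.5, 5.39 and 7.93 CPM in NC. At 24 h it stood at 17.2, 16.3 and 16.2 CPM in KD and at 8.36, 6.21 and 7.0 CPM in NC. The lowest KD library, at 12.6 CPM, was above the highest NC library, at 8.97 CPM. The lines did not overlap at any of the 3 times, in the same direction, for 2.74% of all tested genes.

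The log2 fold change of H2-Q5, KD over NC, was 1.36 ± 0.26 in controls (2.56-fold; edgeR adjusted p = 0.00415), 1.44 ± 0.27 at 12 h (2.71-fold; adjusted p = 0.00539) and 1.21 ± 0.26 at 24 h (2.31-fold; adjusted p = 0.0205). Averaged over times it was 1.34 ± 0.15 (2.52-fold; adjusted p = 3.23e-06). H2-Q5 was the 1 member of 10 called at each time, where 2.06%, 1.60% and 1.39% of all genes were called in controls, at 12 h and at 24 h. Its calls in controls and at 12 h held without any single library. At 24 h the call was lost without any 1 of the KD libraries at 24 h or NC libraries 2 or 3 at 24 h (adjusted p from 0.0157 to 0.0891), and without the 6 libraries numbered 2 (1.13, adjusted p = 0.126). H2-Q7, with which H2-Q5 shares the most sequence, was at 0 to 1.23 CPM in KD and 0 to 0.565 CPM in NC; it was looked up after the values of H2-Q5 were seen. The neighbouring Qa gene H2-Q4 averaged 25.0 ± 2.53 CPM in KD and 12.8 ± 1.54 CPM in NC in controls (SD, n = 3 each). It was called only averaged over times (0.66 ± 0.18, edgeR adjusted p = 0.0181). Of 7 other tested heavy chain and class I-like genes, 1 was called higher there (H2-Q4) and 1 lower (Mr1), against 9.99% of all genes. Log2 fold changes were above 0 for 4 of the 7 and below 0 for 3.

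B2m was the second member called averaged over times, with a log2 fold change of 0.47 ± 0.10, KD over NC (1.39-fold; edgeR adjusted p = 0.00446). The lines did not overlap in controls or at 12 h, as for 16.7% and 16.6% of all genes, and did at 24 h. At single times its log2 fold changes were 0.65 ± 0.18, 0.39 ± 0.18 and 0.38 ± 0.18 in controls, at 12 h and at 24 h, with adjusted p of 0.0623, 0.362 and 0.402. In controls B2m was also called with DESeq2 (adjusted p = 0.0119), without a filter, without CT010467.2, without NC 12 h library 2 or NC 24 h library 1 or 3, and with a replicate block, which called 9.35% of all genes there; adjusted p reached 0.408 over the 12 other settings. With 2 of 10 members called, the average over times is read against 9.99% of all genes. The summed level of 10 microglia and macrophage markers was also higher in KD, with ranges of 813 to 853 CPM in KD and 586 to 710 CPM in NC in controls, 777 to 932 and 647 to 706 CPM at 12 h, and 614 to 695 and 533 to 565 CPM at 24 h. That of the dendritic cell markers was 89.3 to 97.8 CPM in KD and 118 to 175 CPM in NC in controls, and the lines overlapped at 12 h (91.8 to 147 and 124 to 154 CPM) and at 24 h (96.5 to 151 and 149 to 179 CPM). Of 9 tested microglia and macrophage markers, 8, 7 and 8 had log2 fold changes above 0 in controls, at 12 h and 24 h. None was called at a single time, and 1 was called higher averaged over times. All 3 tested dendritic cell markers were below 0 at each time, with 1 called lower each time and 2 averaged. Of all genes, 50.2%, 49.0% and 49.7% were above 0, and 2.06%, 1.60% and 1.39% were called. The part of these markers in the line differences of H2-Q5 and B2m was not tested.

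The other 8 members were not called between lines in this fit. Their log2 fold changes ran from 0.11 for H2-D1 to 0.73 for Tap2 in controls, from near 0 for Tap2 (0.998-fold) to 1.07 for H2-K1 at 12 h, and from 0.13 for Tap2 to 0.70 for H2-K1 at 24 h. All 10 members were above 0 in controls and at 24 h and 9 of 10 at 12 h, where 50.2%, 49.7% and 49.0% of all genes were above 0; the sign of Tap2 at 12 h turned with RLE factors, with DESeq2, with the replicate block and in several other settings. The median over the members was 0.41 in controls, 0.42 at 12 h and 0.45 at 24 h, and over all genes it lay between -0.01 and 0.00. Without KD 24 h library 3 only 5 of 10 members were above 0 at 24 h, and without NC control library 2 only 7 of 10 in controls. At 12 h the replicate block also called Psmb8 (0.71 ± 0.17, adjusted p = 0.00528) and H2-D1 (0.42 ± 0.11, adjusted p = 0.00665) higher in KD, against 10.9% of all genes. Without a filter, H2-K1 was called higher in KD at 12 h (adjusted p = 3.22e-05) and at 24 h (adjusted p = 0.0401), and Psmb8 at 12 h.

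**Figure D4:**
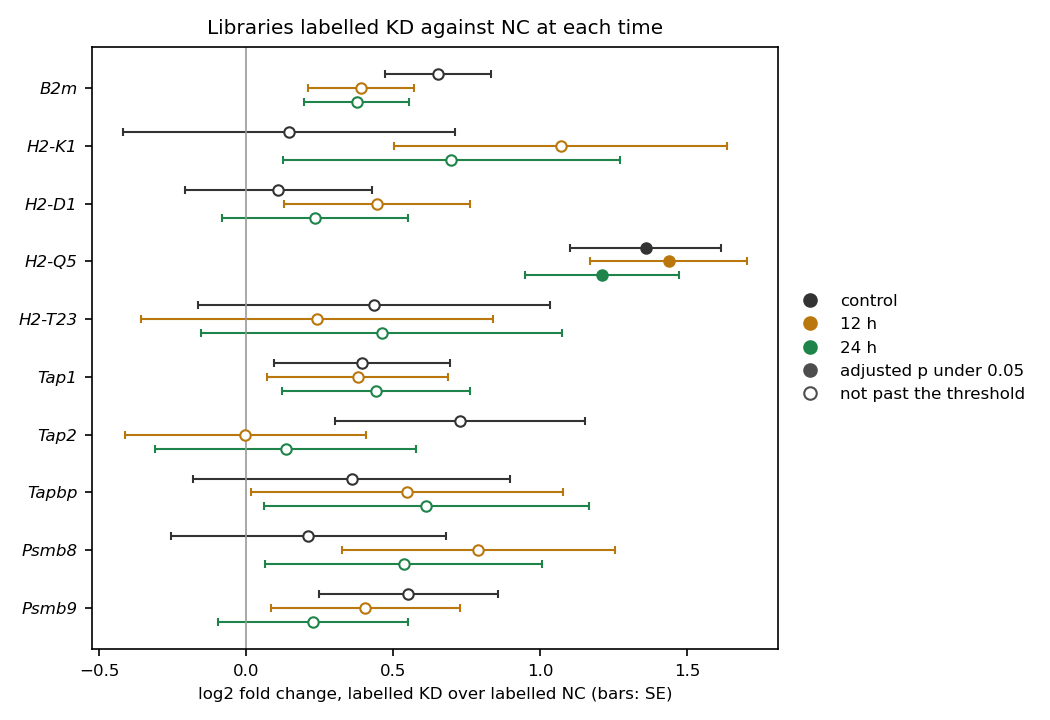
Log2 fold change of each gene in libraries labelled KD over those labelled NC in controls, at 12 h and at 24 h; bars are SE and filled points have adjusted p under 0.05. H2-Q5 is filled at all 3 times between 1.21 and 1.44, and no other gene has a filled point; H2-K1 at 12 h, at 1.07, is the highest of these.

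Whether the response differed between lines was tested as an interaction. No member was called for 12 h or for 24 h by edgeR, and 0.0750% and 0.0313% of all genes were. At an unadjusted p under 0.05 the counts were 0 and 0, and DESeq2 and limma called none. With the replicate block no member was called either, against 2.07% and 1.21% of all genes. B2m, for instance, had an interaction of -0.26 ± 0.25 at 12 h, and Tap1 of 0.05 ± 0.43 at 24 h (log2, KD response minus NC response). The SE of the interaction ran from 0.25 to 0.85 over the members, so small differences in response could not be seen.

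Within a group the members did not scatter independently. Libraries numbered 2 were the lowest of their group in all 6 groups for H2-K1, H2-D1, H2-T23, Tapbp, Psmb8 and Psmb9, and in 5 of 6 for Tap1. Of all tested genes, 9.38% were lowest in number 2 in all 6 groups. Libraries numbered 3 were the highest in all 6 groups for H2-D1, Tapbp and Psmb8, and the share of all genes with that order was not computed. Against the group mean of log2 CPM, libraries numbered 2 had a median deviation of -0.83 for H2-T23, -0.68 for Tapbp, -0.58 for H2-K1 and 0.04 for B2m. B2m and Tap2 thus did not share the pattern. The same libraries held more counts on Malat1 and other genes not annotated as protein-coding, as given above. The part of that in these values was not tested.

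**Figure D5:**
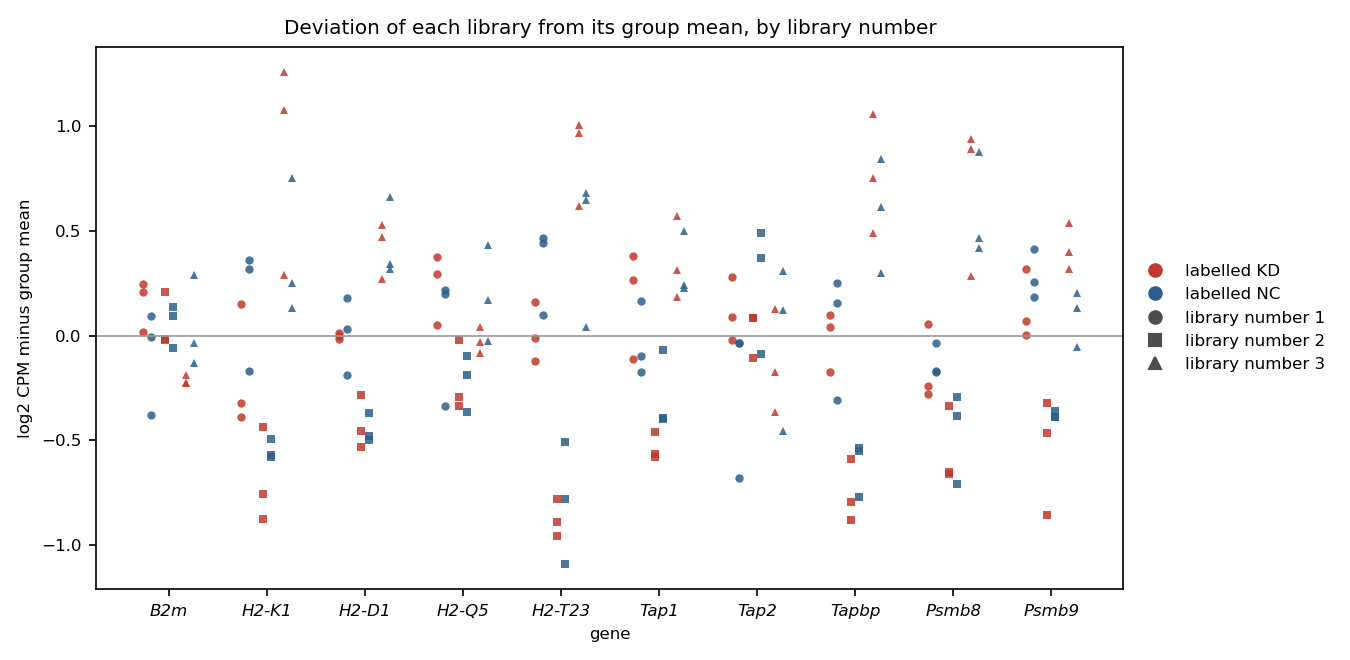
Deviation of each library from its group mean in log2 CPM, by gene and library number, with libraries labelled KD left of NC within a number. Library number 2 lies below 0 in each group for every gene except B2m and Tap2, which show no such order.

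Taken as deviations from group means over 18 libraries, H2-K1, H2-D1, H2-T23, Tapbp and Psmb8 correlated with each other at Pearson r from 0.833 to 0.955 (median 0.913 over 10 pairs). No rule set beforehand picked these 5 genes, and the lowest r among them lies below the highest with Tap1 and Psmb9. Values for pairs of other genes are not given here. Against Tap1 and Psmb9 these 5 genes had r from 0.709 to 0.890. For H2-Q5 r lay from 0.342 to 0.494, against Tap2 from -0.444 to -0.262 and against B2m from -0.545 to -0.135. Tap1 and Psmb9 had r of 0.751 within groups and 0.856 over all libraries. Within groups Tap1 had higher r with Tapbp (0.884), H2-T23 (0.832), H2-D1 (0.827), Psmb8 (0.792) and H2-K1 (0.783). The part of the upstream region that Tap1 and Psmb9 share was not tested. These values describe 18 libraries that share groups and library numbers, and genes in the same library share its scaling. Within groups, B2m, whose product pairs with each heavy chain, was thus not higher in the libraries where H2-K1, H2-D1 and H2-T23 were higher.

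Among 10803 other genes with a mean of at least 5 CPM, those most like Tap1 in log2 CPM over the 18 libraries were Slc35f6 (Pearson r = 0.930), Gsdmd (0.893), Gatd3a (0.886), Stat2 (0.884) and Ncoa4-ps (0.884). Those most like Psmb8 were Gabarap (0.923), Gusb (0.921), Slc25a22 (0.911), Atp6ap1 (0.909) and Slc25a35 (0.897). Those most like H2-K1 were Tctn1 (0.944), Mfsd10 (0.922), Lamtor3 (0.921), Slc25a22 (0.908) and Gusb (0.901). Gusb and Slc25a22 stood in the lists of both Psmb8 and H2-K1.

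Ratios within a library do not depend on its scaling. The log2 ratio of Psmb9 to its constitutive counterpart Psmb6, in deposited TPM, had a lower mean in treated than in control libraries of each line, and none of these differences passed the adjustment. In KD it was -3.99 ± 0.09 in controls, -5.28 ± 0.16 at 12 h and -5.26 ± 0.47 at 24 h (SD, n = 3 each). In NC it was -4.68 ± 0.13, -5.68 ± 0.27 and -5.58 ± 0.73. The differences from control were -1.28 and -1.27 in KD and -1.0 and -0.90 in NC at 12 h and 24 h, each with an exact two-sided permutation p of 0.1, the smallest that 3 against 3 allows. The libraries did not overlap in these 4 comparisons, and the adjusted p over 35 ratio tests was 0.318. The log2 ratio of Psmb8 to Psmb5 differed from control by -0.36 and -0.67 in KD and by -0.45 and -0.44 in NC, with exact p from 0.3 to 0.5. That of Psmb10, the remaining inducible subunit, to Psmb7 differed by -1.65 and -1.95 in KD and by -0.98 and 0.14 in NC, with exact p of 0.3, 0.1, 0.1 and 1 and none past the adjustment.

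Between lines and permuted within times, the log2 ratio of H2-Q5 to B2m was higher in KD by 0.87 (exact permutation test over 8000 arrangements, two-sided p = 0.001; adjusted p = 0.0350 over 35 tests). Leaving out 1 library gave adjusted p from 0.00875 to 0.0963, and the call was kept in 7 of 18 cases; it was lost without any KD library except control library 2, and without NC control library 1 or 2 or NC 12 h library 1. The ratios of H2-K1, H2-D1 and H2-T23 to B2m differed between lines by 0.05, -0.20 and -0.15, with exact p of 0.906, 0.413 and 0.716. The Psmb8 to Psmb5 ratio was higher in KD by 0.65 (exact p = 0.00475, adjusted p = 0.0831) and that of Psmb9 to Psmb6 by 0.47 (exact p = 0.0195, adjusted p = 0.2275). Neither passed the adjustment.

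The rest of the pathway was read from fixed lists, each set against the same comparison. Of 16 other genes for loading and peptide supply, 4 were higher and none lower at 12 h in KD, and 5 were higher and none lower at 12 h in NC, where 16.0% and 12.2% of all genes were called in either direction. They include the chaperones and thiol reductase of the endoplasmic reticulum that fold or load the heavy chain. Calr, which encodes calreticulin, averaged 687 ± 68.9 CPM at 12 h in KD and 329 ± 9.37 CPM in KD controls, and 639 ± 57.9 CPM at 12 h in NC and 212 ± 25.6 CPM in NC controls (SD, n = 3 each). Its log2 fold change was 1.06 ± 0.20 in KD (edgeR adjusted p = 0.000580) and 1.59 ± 0.20 in NC (adjusted p = 8.73e-06). Hspa5, the chaperone BiP, rose by 1.79 ± 0.27 in KD and 1.60 ± 0.27 in NC, Pdia3, the reductase ERp57, by 0.83 ± 0.20 and 1.00 ± 0.20, and Sec61a1, a subunit of the translocation channel, by 0.75 ± 0.18 and 0.85 ± 0.18 (log2, SE). The median of that list was 0.39 in KD and 0.40 in NC, beside 0.00 and -0.01 over all genes.

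By 24 h the counts in that list were 0 of 16 in KD and 1 of 16, Calr, in NC, where 9.59% and 7.57% of all genes were called. Of 14 constitutive proteasome core genes, 2 were higher at 12 h in KD, Psma2 (0.70 ± 0.20) and Psmb5 (0.85 ± 0.27), and 1 in NC, Psma5 (0.78 ± 0.18), with none lower; these shares lie below the 16.0% and 12.2% of all genes called. All 14 had a log2 fold change above 0 at 12 h in each line, with medians of 0.53 in KD and 0.59 in NC. Over all genes, 50.3% in KD and 49.3% in NC were above 0. At 24 h none of the 14 was called by edgeR in either line, against the same 9.59% and 7.57% of all genes.

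Of 20 regulators of class I transcription, 1 was higher and 4 were lower at 24 h in KD, and 1 was higher and 2 were lower in NC, where 9.59% and 7.57% of all genes were called. Stat2, a subunit of the interferon-induced factor ISGF3, averaged 11.6 ± 2.86 CPM at 24 h in KD and 22.7 ± 5.93 CPM in KD controls, and 9.87 ± 1.54 CPM at 24 h in NC and 19.0 ± 3.82 CPM in NC controls (SD, n = 3 each). Its log2 fold change was -0.96 ± 0.25 in KD (edgeR adjusted p = 0.0159) and -0.94 ± 0.26 in NC (adjusted p = 0.0260). Irf9, another subunit, fell by 0.85 ± 0.20 in KD and by 1.03 ± 0.20 in NC. Nfkb1, which encodes an NF-kappa-B subunit, rose by 0.67 ± 0.15 in KD and 0.87 ± 0.15 in NC at 24 h. Nlrc5, the main activator of class I genes, had log2 fold changes from -0.12 to 0.59 against control and was not called; it is named after its values were seen.

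At 12 h, 2 of the 20 regulators were higher and 3 lower in KD, where 16.0% of all genes were called. In NC 2 were higher and none lower, where 12.2% of all genes were called. The median of the list was -0.22 in KD and -0.05 in NC. Nfkb1 rose by 1.22 ± 0.15 in KD and 1.21 ± 0.15 in NC at 12 h, and Nfkb2 by 1.06 ± 0.30 and 1.01 ± 0.29. Irf1 fell by 1.38 ± 0.30 in KD at 12 h (adjusted p = 0.00244), with 0.09 ± 0.29 in NC (adjusted p = 0.896); the interaction was not called (adjusted p = 0.361). Of 9 tested interferon signalling genes, 2 were called higher at 12 h in each line, Socs3 and Jak1, and none lower. There, 16.0% of all genes were called in KD and 12.2% in NC. At 24 h the shares of all genes called were 9.59% and 7.57%. The feedback inhibitor Socs3 was higher in each line at 24 h (2.06 ± 0.25 in KD and 2.32 ± 0.25 in NC). Usp18, an interferon-induced regulator, was lower (-0.85 ± 0.15 in KD and -1.20 ± 0.16 in NC). Ifnar1, an interferon receptor chain, was also lower in NC at 24 h (-0.57 ± 0.17, adjusted p = 0.0480). Comparisons of 12 h and of 24 h share their control libraries within a line.

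Of 7 other tested heavy chain and class I-like genes, 1 was higher and 2 were lower at 12 h in KD, and 1 was higher and 1 lower in NC, where 16.0% and 12.2% of all genes were called. Hfe, a class I-like regulator of iron uptake, averaged 3.83 ± 0.400 CPM at 12 h in KD and 10.8 ± 1.85 CPM in KD controls, and 4.84 ± 1.65 CPM at 12 h in NC and 11.9 ± 1.11 CPM in NC controls (SD, n = 3 each; -1.48 ± 0.36 and -1.29 ± 0.35). H2-T24 was lower in KD at 12 h (-0.50 ± 0.17) and 24 h (-1.14 ± 0.17), H2-T10 was higher in KD at 12 h (1.89 ± 0.57) at a low level, and H2-M3 was higher in NC at 12 h (0.52 ± 0.17). Of 12 class II presentation genes only 4 could be tested. Cd74, the class II invariant chain, averaged 1.71 ± 0.730 CPM in KD controls and 3.73 ± 0.993 CPM in NC controls, and was lower in KD averaged over times (-0.94 ± 0.27, adjusted p = 0.0304). H2-DMb1, a class II loading factor, was lower at 12 h in KD (-0.95 ± 0.32, adjusted p = 0.0451).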

How the data were processed

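RNA-seq libraries of BV2 cells were aligned with HISAT2 2.2.0 to GRCm38 and counted with featureCounts, per the submitters' processing notes, which also name DESeq2 and bcl2fastq. The authors deposited raw read counts per gene and, in a second table, TPM, each with 55487 genes in 18 libraries. Recomputing it from the counts and the table's gene lengths gave back the deposited TPM. Strand, annotation release and the handling of multi-mapping reads are not given in the sources used here. Depth was 4361313 to 6008810 counts a library.

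Counts were fitted with edgeR 4.0.16 (R 4.3.3): TMM factors, the filterByExpr filter with a minimum count of 10 (15996 genes), 1 mean per group, robust quasi-likelihood tests on all 18 libraries, and Benjamini-Hochberg adjustment over all tested genes with a threshold of 0.05. The median biological coefficient of variation was 0.221. The procedure was tested on simulated data. Ratios of TPM were tested by exact permutation. Alternatives were other scalings and filters, DESeq2 1.42.0, limma 3.58.1 on log2(TPM + 1) and log2(TPM + 0.1), a replicate block, leaving out the 6 libraries numbered 2, and leaving out each library. A level per kilobase of merged exons was added after the data were seen.

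Titles number the libraries of each group 1 to 3, and no label explains the numbers. Same-numbered libraries deviated together, with every correlation above 0.1 in 7 of 9 comparisons: all 6 comparisons of times and the lines at 12 h (0.108 to 0.448). The lowest was 0.0703 between lines in controls and 0.0946 at 24 h. No 2 libraries of a group agreed within sampling noise (chi-square per degree of freedom from 4.5 to 17.3).

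The members and gene lists were chosen with earlier results of these data known. Named genes were all members and, from each list and comparison, up to 4 tested genes with the lowest adjusted p, apart from genes said to be named after their values were seen. A gene of the regulator list is counted there and not reported here by name. Beside the lists in the report, marker lists of neurons, astrocytes, oligodendrocytes and of fibroblasts and endothelium summed to at most 10.6, 1.13, 8.41 and 5.95 CPM in any library.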

Additional observations from a re-analysis of the deposited data

How the results depend on the processing

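No call among the 10 members reversed under any alternative. Of 1401 values under alternatives other than leaving out 1 library, 1341 kept their side of the threshold, 15 lost a call and 45 gained one, and 34 uncalled values changed sign. Leaving out 1 library gave 2160 values, of which 2128 kept their side, 23 lost a call and 9 gained one, and 100 uncalled values changed sign. Counts of called members that moved by over 1.5 times were as follows. At 12 h in KD (1 member called) the count was 2 with upper-quartile factors, 5 without a filter, 2 with a filter of 5 CPM, 6 with the replicate block, 2 without the 6 libraries numbered 2, and 0 with limma on log2(TPM + 1), log2(TPM + 0.1) and log2(TPM + 1) without a filter. At 24 h in KD (2 called) it was 1 in the 3 limma fits. In NC it was 4 with the replicate block and 0 with limma at 12 h (1 called), and 3 and 0 at 24 h (1 called). Between 24 h and 12 h (0 called) it was 2 in KD without a filter and 2 with the replicate block, and 1 and 1 in NC. Between lines (1 called at each time) it was 2 in controls without CT010467.2, without a filter and with DESeq2, and 3 with the replicate block. At 12 h it was 3 without a filter and 3 with the replicate block, and at 24 h 2 and 2, and 0 without libraries numbered 2. Averaged over times (2 called) it was 7 without a filter, 7 with the replicate block and 1 with limma without a filter. Between lines, the replicate block called 1440 of 15996 genes at 24 h and 24.4% of all genes averaged over times. For alternatives other than the block, among them the fit without a filter, the share of all genes called is not given here. For the lines in controls, at 24 h and averaged, the libraries share only a number. The replicate block is given for these here and, for B2m in controls, above. In controls the blocked edgeR fit called H2-Q5, B2m (adjusted p = 0.0333) and Psmb9 (0.0382). The cause of these shifts was not tested. Leaving out 1 library gave 0 to 2 called members at 12 h and 24 h in KD, 1 to 1 at 12 h and 0 to 1 at 24 h in NC, 0 to 0 between 24 h and 12 h in either line and for the interactions, 1 to 2, 1 to 1 and 0 to 1 between lines in controls, at 12 h and at 24 h, and 2 to 2 averaged over times. Depth limited Tap2 most, with 202 counts over all libraries.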
